A study of Mus musculus with 4 samples.

Results

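Cluster 13 was one of the 15 numbered cell clusters in a single-cell experiment on mouse embryonic stem cells taken through a directed cardiac differentiation. Its members here are the 88 genes that the authors' deposited marker table lists for it, chosen by the table's cluster number, of 1197 genes and 2212 entries in all. The study made 4 libraries, 1 per group, from cells with and without Brm at the mesoderm stage and again at the cardiac stage. Both genotypes carried a triple FLAG tag on BRG1 (BRG1 3XFLAG), the knockout lines in addition lacked BRM (BRM KO), and the labels call the later stage cardiac progenitors or cardiac myocytes. The number of clones behind each genotype was not stated. The table names no library, so no comparison of genotype or stage was made, and its name mentions only the Brm knockout. Cell numbers and depth are not stated and cells are not replicates, so no value below has an error or a test. Clustering used the expression of these same genes, so the fold changes of cluster 13 describe it and are not independent findings.

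A heart muscle cell contracts through sarcomeres, in which myosin heavy and light chains pull on actin filaments under the control of troponins and tropomyosin. Calcium released from the sarcoplasmic reticulum starts each contraction and is pumped back afterwards. The energy comes largely from mitochondria, whose respiratory complexes combine subunits encoded in the mitochondrial genome with many more encoded in the nucleus. As cardiomyocytes mature, they slow their division and take on these contractile and metabolic genes together.

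Cluster 13 had heart muscle and mitochondrial genes among its 64 higher entries, and nuclear, cytoskeletal and signalling genes among its 24 lower ones. Of the genes in the authors' deposited table, 5.35% were listed higher for cluster 13 and 2.01% lower. For cluster 2, the cluster with the fullest contractile programme, these shares were 22.7% and 25.7%. The higher entries of cluster 13 comprised 20 sarcomeric genes, 10 mitochondrially encoded genes and 34 others. All 24 lower entries were neither sarcomeric nor mitochondrially encoded. Folds ran from 1.65 to 3.85 among higher entries (median 2.13) and from 1.65 to 2.18 among lower ones (median 1.77), in the authors' deposited table. Over the higher and lower entries of all 15 clusters, the medians were 2.10 and 1.97. The smallest change that the table lists is 0.50 on the natural log scale, so the entries at 1.65-fold lie at its threshold. Of the 88 entries, 11 carried an authors' adjusted p of 0.05 or more, 10 of them higher and 1 lower, namely Atp5k, Igfbp5, Bnip3, Cox6c, Uqcrq, Crip2, Myl6, Fam96b, Higd1a, Serinc3 and Emb. That p compares cells, which are not replicates.

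The label of the cluster was set beside lists of markers. These lists were chosen with earlier results of these data known, and the label's own markers are entries of this cluster. The counts therefore describe the cluster and do not test its label. All 5 of Myl7, Tnnt2, Myl4, mt-Cytb and mt-Co1 were listed higher. Of 11 cardiomyocyte markers, 10 were in the table and all 10 were listed higher for cluster 13. Markers of other cell types were listed for it neither higher nor lower: 0 of the 6 fibroblast and smooth muscle markers in the table, 0 of 4 for neural progenitors, 0 of 3 each for neurons, pluripotent cells and epithelium, and 0 of 2 for endoderm. None of the 7 endothelial and blood markers was in the table. With backgrounds of 5.35% higher and 2.01% lower, 0 of so few markers does not set these lists apart from all genes. A gene without an entry missed a threshold of the table and may still be expressed. The cluster is called by its number below, because fewer than 50% of its cells detected each sarcomeric gene other than Tpm1.

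Cluster 13 was small, with 0.497% of all cells, against 12.6% for cluster 2. These shares were solved from the deposited detection percentages, because every entry of a gene, weighted by the size of its cluster, has to return 1 overall detection. Cluster 2 itself is among the cells that the deposited fold changes of cluster 13 use as their reference. Because of it, Myl7, the atrial regulatory myosin light chain, stands at only 3.85-fold in cluster 13 in the authors' deposited table. With the solved sizes, each of the 79 genes listed for both clusters was therefore set against the 86.9% of cells in neither. The 79 genes were 89.8% of the entries of cluster 13 and 13.6% of the 580 entries of cluster 2, and 57 were higher and 22 lower in both. The 2 clusters share most of their reference cells, so their entries are not independent of each other. All folds and levels here include a constant, of unknown size, that was added before taking logs. Ratios of levels are therefore drawn towards 1, most for weakly expressed genes, and their sizes compare poorly between genes.

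Against the cells in neither cluster, Myl7 was 34.5-fold higher in cluster 13. It was detected in 49.7% of the cells of cluster 13 and 98.4% of those of cluster 2 in the authors' deposited table, and in 7.78% of the remaining cells as worked out from it. Tnnt2, the cardiac troponin that binds tropomyosin, was detected in 47.5%, 96.9% and 2.85% of the same cells and was 20.6-fold higher in cluster 13 than in the cells in neither. Myl4, the atrial essential light chain, was detected in 46.9%, 96.7% and 2.99% and was 22.9-fold higher. For these genes, the transcript was detected in close to 1 in 2 cells of cluster 13, in nearly every cell of cluster 2 and in few of the rest.

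The ventricular light chains behaved alike. Myl3 was detected in 44.1% of cluster 13, 94.2% of cluster 2 and 2.09% of the remaining cells, and Myl2 in 35.2%, 74.5% and 1.30%. Their folds over the cells in neither were 18.2 and 9.21. Ttn, the giant spring protein of the sarcomere, was 12.3-fold higher on that scale. The myosin heavy chains Myh6 and Myh7, which form the thick filament motor, were 9.48-fold and 8.52-fold higher. Tnni1, the troponin I of embryonic heart and slow muscle, was 12.5-fold higher, and the adult cardiac Tnni3 6.46-fold higher. The cells in neither are a mixture, and cluster 9 among them detected some of these genes more widely than cluster 13. Tnni1 was detected in 71.5% of cluster 9 against 46.9% of cluster 13, and Des in 52.5% against 37.4%. Over the mean of all cells, their levels in cluster 9 were lower, at 1.81 against 2.78 for Tnni1 and 1.87 against 2.16 for Des. For Actc1, the cardiac alpha actin, the fold over the cells in neither was 24.1, although it stands at 2.58 in the authors' deposited table. All 20 sarcomeric genes lay between the other 2 groups of cells in detection.

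**Figure D1:**
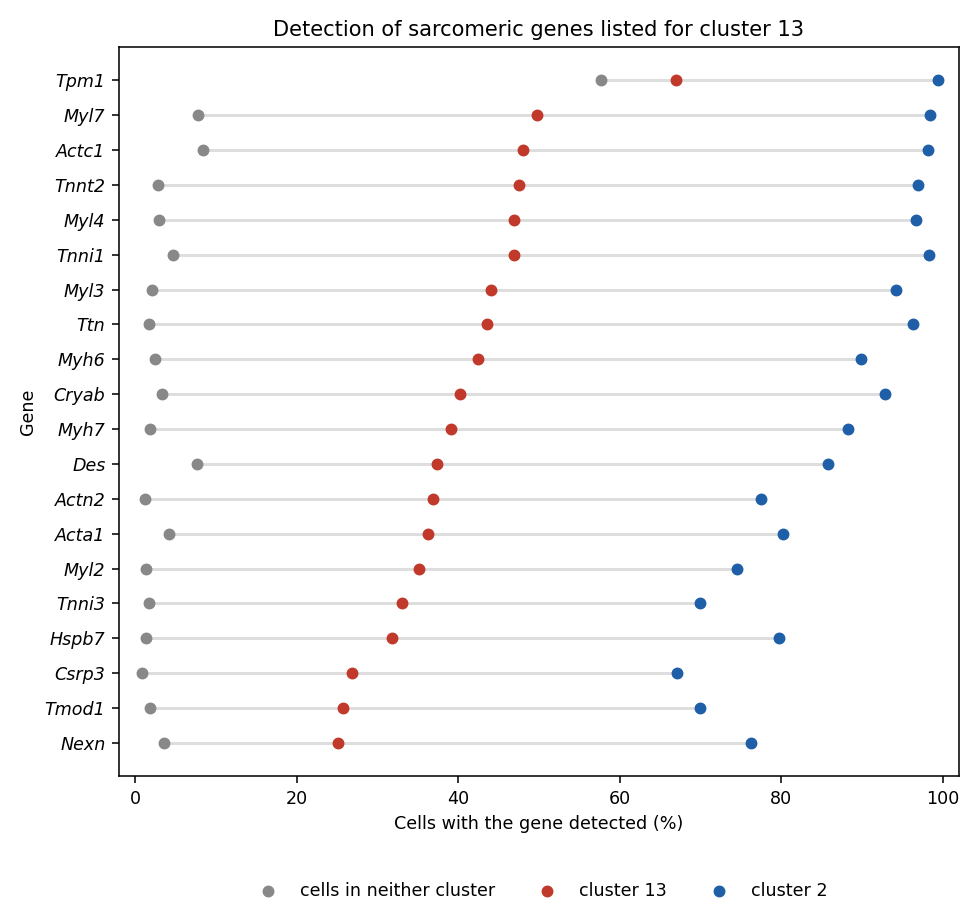
Percent of cells with each of the 20 sarcomeric genes of cluster 13 detected (x axis), for cluster 13, for cluster 2 and for the cells in neither cluster, with 1 gene per line. Each cluster 13 point lies between the other points of its line, at 49.7% for Myl7 against 98.4% and 7.78%, and Tpm1 has the highest detection outside both clusters, at 57.7%.

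The place of cluster 13 between the remaining cells and cluster 2 was expressed as a position, with 0% for the cells in neither cluster and 100% for cluster 2. By detection, the sarcomeric genes had a median position of 44.2%, from 22.3% for Tpm1 to 47.5% for Tnnt2, and 14 of the 20 lay between 40% and 50%. By level, their median position was 45.2%, from 28.8% for Acta1 to 60.6% for Myl2. Level means the mean expression over all cells of a cluster plus the added constant. The constant cancels in a position but not in a ratio. The level in cluster 13 was 0.321 to 0.634 of that in cluster 2, with a median of 0.515. A gene enters here only if it passed the table's thresholds in cluster 13, which need a detection of about 25% inside or outside, so these medians do not hold for heart genes at large. Of 37 sarcomeric list genes in the table, 20 were listed for cluster 13 and 35 for cluster 2, all higher, where the backgrounds are 5.35% and 22.7%.

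A lower mean level can come with fewer detecting cells, with less per detecting cell, or with both, so the level was divided by the share of cells that detected the gene. The constant that was added before taking logs is unknown, and each ratio is therefore given as the range it can take for any such constant. Per detecting cell, Myl7 in cluster 13 stood at 1.06 to 1.07 of its level in cluster 2, Tnnt2 at 1.05 to 1.07 and Myl4 at 1.01 to 1.03. Per detecting cell, the level of these transcripts was thus about the same in clusters 13 and 2. Myl2, Myh6, Tnni3 and Ttn lay above, with ranges of 1.28 to 1.34, 1.24 to 1.30, 1.22 to 1.31 and 1.21 to 1.26. The actins and the tropomyosin lay below: Actc1 at 0.720 to 0.740, Acta1, the skeletal alpha actin that the embryonic heart also makes, at 0.637 to 0.708, and Tpm1 at 0.580 to 0.607. Over the 20 sarcomeric genes, 14 had their whole range above 1, 4 had it below 1 (these 3 and Tnni1), and for Actn2 and Hspb7 it held 1. Fewer cells with the transcripts and less RNA read per cell cannot be told apart here.

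**Figure D2:**
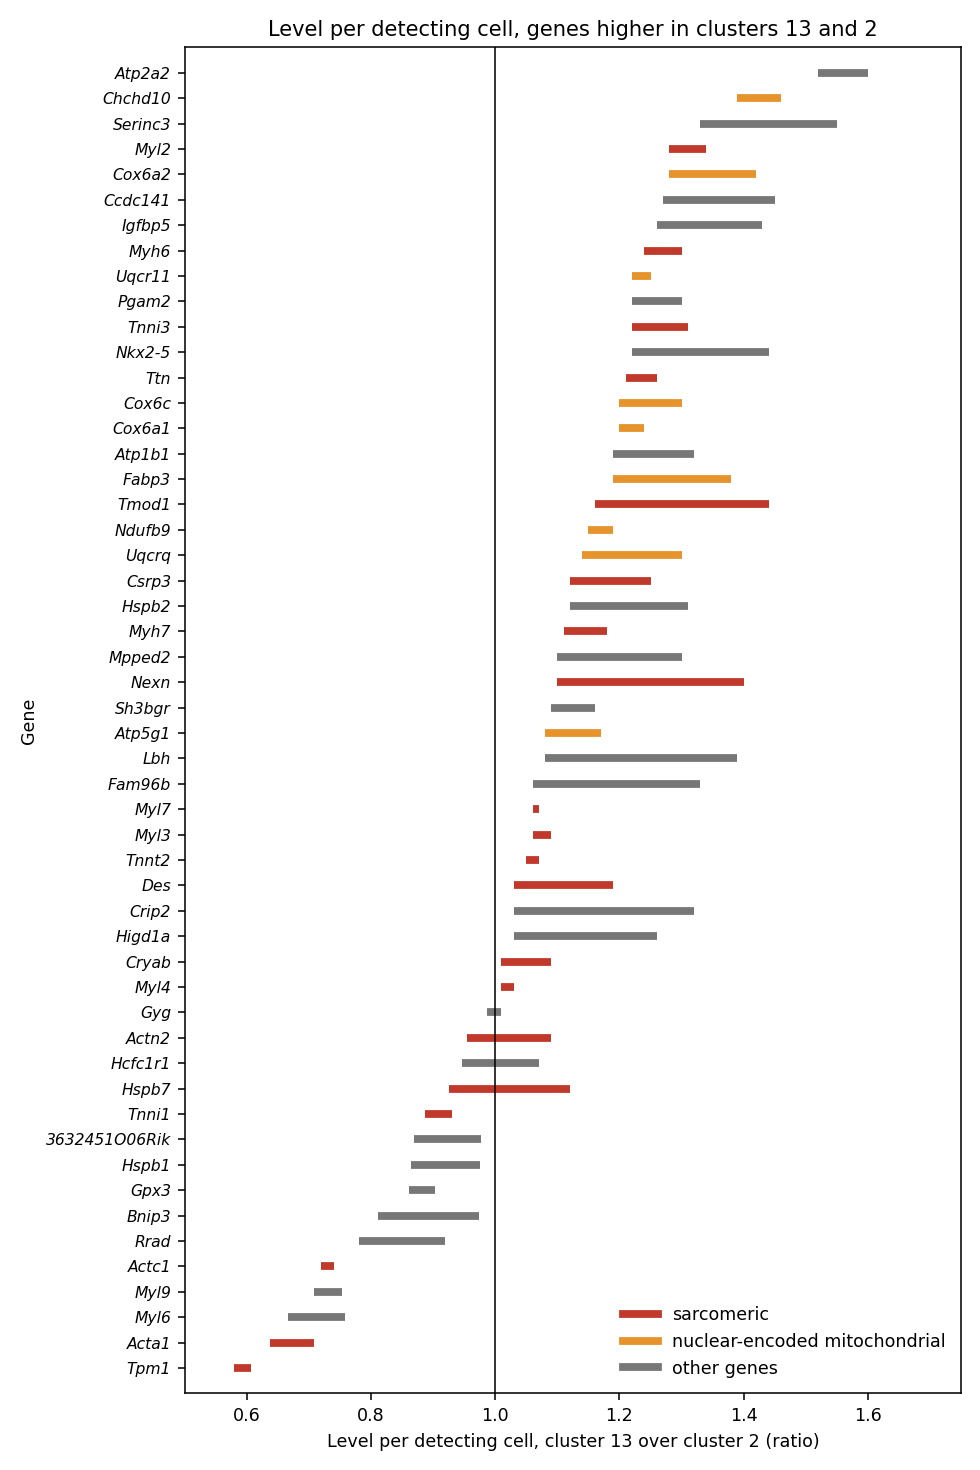
Level per detecting cell in cluster 13 divided by that in cluster 2 (x axis) for 52 of the 53 genes that are higher in both clusters and not mitochondrially encoded, each bar spanning the values possible for any added constant. Atp2a2 is at the top with 1.52 to 1.60 and Tpm1 at the bottom with 0.580 to 0.607, and the bars of Actc1, Acta1, Myl9 and Myl6 also lie left of 1.

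Some of the actin and myosin light chain genes among the members shared a promoter feature, which was not used to choose the members. The CArG box is the site that serum response factor recognises in muscle and cytoskeletal genes, here CC, then 6 bases that are each A or T, then GG, a motif that reads the same way on both strands. RefSeq promoter windows of build GRCm38.p6, from 250 bases before to 50 after the start, were found for 59 of the 88 members. A CArG box was in 6 of the 41 higher members with a window (14.6%), in 1 of the 18 lower ones (5.56%), and in 1.81% of all 27025 genes with a window. In the marker table as a whole it was 3.61%, and among genes higher in cluster 2 it was 7.88%. The matches are a description of these windows and not evidence of binding. The sequences of the 7 members with a box are shown, because these are all actin or myosin light chain genes, each with 25 bases on either side of the box, 5′ to 3′ on the strand of the gene, with the box in capitals.
Actc1: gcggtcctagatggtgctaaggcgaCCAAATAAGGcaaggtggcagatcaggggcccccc
Acta1: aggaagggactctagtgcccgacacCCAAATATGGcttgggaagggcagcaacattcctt
Myl9: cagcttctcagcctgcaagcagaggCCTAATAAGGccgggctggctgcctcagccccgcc
Myl6: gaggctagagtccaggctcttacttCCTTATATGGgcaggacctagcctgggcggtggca
Myl7: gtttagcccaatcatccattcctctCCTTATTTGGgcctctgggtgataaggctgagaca
Myl3: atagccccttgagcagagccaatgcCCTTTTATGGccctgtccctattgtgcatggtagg
Actg1: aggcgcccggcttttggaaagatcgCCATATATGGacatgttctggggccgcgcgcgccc

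The stretches lie at chr2:114052888-114052947 on the minus strand (Actc1), chr8:123894814-123894873 minus (Acta1), chr2:156775278-156775337 plus (Myl9), chr10:128493025-128493084 minus (Myl6), chr11:5898809-5898868 minus (Myl7), chr9:110763568-110763627 plus (Myl3) and chr11:120348551-120348610 minus (Actg1), all upstream of the annotated start. The boxes begin 47 bases before the start in Actc1, 73 in Acta1, 161 in Myl9, 50 in Myl6, 61 in Myl7, 85 in Myl3 and 90 in Actg1. Of the 6 higher genes, Actc1, Acta1, Myl9 and Myl6 had less per detecting cell than in cluster 2, and Myl7 and Myl3 slightly more. Myl9 and Myl6, light chains of smooth muscle and non-muscle myosin, stood at 0.709 to 0.754 and 0.667 to 0.758. Actg1, a cytoskeletal actin, was one of the lower genes of cluster 13.

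Among entries neither sarcomeric nor mitochondrially encoded, the highest folds were those of Chchd10, Gyg, Pgam2 and Sh3bgr. Chchd10, a protein of the mitochondrial intermembrane space, and Gyg, the glycogenin that primes glycogen synthesis, both stood at 3.07-fold in the authors' deposited table. Pgam2, the muscle phosphoglycerate mutase of glycolysis, and Sh3bgr both stood at 3.03-fold in it. Against the cells in neither cluster, Gyg was 10.5-fold, Sh3bgr 8.75-fold, Pgam2 7.35-fold and Chchd10 5.77-fold higher. Gyg was detected in 50.8% of cluster 13, 98.1% of cluster 2 and 18.9% of the remaining cells, so it is more widespread than Sh3bgr, at 44.1%, 92.4% and 2.24%.

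Calcium handling and ion transport were represented by 2 of the 12 list genes in the table, where cluster 2 listed 11 and the backgrounds are 5.35% and 22.7%. Atp2a2, the pump that returns calcium to the sarcoplasmic reticulum, was detected in 36.3% of cluster 13, 68.9% of cluster 2 and 9.21% of the rest. Its level in cluster 13 reached 0.841 of that in cluster 2, and per detecting cell it stood at 1.52 to 1.60, the highest range of the 53 genes. Atp1b1, a subunit of the sodium and potassium pump, was 4.18-fold higher than in the cells in neither and at 0.660 of cluster 2. Over the mean of all cells, Atp1b1 stood higher in cluster 14, at 3.47, than in cluster 13, at 2.47. Rrad, a small GTPase that restrains calcium channels, had one of the lowest levels against cluster 2, at 0.345, and was detected in 33.5% against 89.2% of cells. Pln, the inhibitor of the calcium pump, had no entry for cluster 13.

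Nkx2-5 was the 1 cardiac transcription factor listed, of 9 on the list and in the table, against a background of 5.35%. It was detected in 25.7% of the cells of cluster 13, 60.6% of those of cluster 2 and 1.14% of the rest, and was 3.15-fold higher than in the cells in neither. Among small heat shock genes, Hspb1 was detected in 41.9%, 92.8% and 7.80% and Hspb2 in 30.7%, 78.9% and 2.49%. Hspb1 was the only one of 10 stress, p53 and immediate early list genes in the table to have an entry (background 5.35%), so that list did not extend to Cdkn1a, which cluster 2 lists higher. Fabp3, the fatty acid binding protein of heart, was 2.80-fold and Igfbp5, an insulin-like growth factor binding protein, 2.22-fold higher than in the cells in neither. Neither gene was particular to clusters 13 and 2. Over the mean of all cells, Fabp3 stood at 7.22 in cluster 14 against 2.03 in cluster 13, and Igfbp5 at 2.25 in cluster 9 against 1.83.

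Gpx3 and Myl9 were listed higher for clusters 13 and 2 and lower for most others. The reference of those lower entries includes cluster 2. Cluster 0, for example, was 2.72-fold lower for Gpx3 with detection of 35.6% inside and 34.2% outside. The authors' deposited table lists Gpx3, the secreted glutathione peroxidase, as higher in cluster 13 (2.45-fold), cluster 2 (12.7-fold) and cluster 9 (2.22-fold), and as lower in 11 clusters. In that table Myl9 was higher by 2.12-fold in cluster 13 and by 17.5-fold in cluster 2, and lower in 11 other clusters. Hcfc1r1 was higher in cluster 13 at 1.99-fold, higher in clusters 2 and 9 too, and lower in 8 clusters in the authors' deposited table. The detection of Gpx3 was 50.8% in cluster 13, 96.5% in cluster 2 and 25.2% in the rest. Cluster 9, which is part of that rest, detected Gpx3 in 84.2% of its cells. It detected Hcfc1r1 in 67.0%, against 45.3% in cluster 13.

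Mitochondrially encoded genes were the one group of higher genes whose level in cluster 13 lay above that of cluster 2. All 10 in the table were listed higher for it, while cluster 2 listed 4 and cluster 14 listed 3 higher. The subunits of complex IV, mt-Co1, mt-Co2 and mt-Co3, had folds of 3.23, 3.03 and 2.85 in the authors' deposited table and were detected in every cell to its rounding. The complex III subunit mt-Cytb was 3.25-fold higher and detected in 99.4% in that table. Over the mean of all cells, mt-Co1 stood at 3.20 in cluster 13, 2.09 in cluster 2, and 0.579 to 0.615 in clusters 0, 7 and 8. For mt-Cytb the levels were 3.21 in cluster 13, 1.89 in cluster 2 and 1.67 in cluster 14. The level in cluster 13 was 1.53 times that of cluster 2 for mt-Co1, 1.70 for mt-Cytb, 1.74 for mt-Co3 and 1.77 for mt-Co2. Nearly every cell of either cluster detected these 4 genes, so here the difference lay in the level and not in the share of cells. Depth per cell is unknown, so a higher level need not mean more transcript in a cell.

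For the complex I subunits mt-Nd4, mt-Nd1 and mt-Nd2, the folds of cluster 13 were 2.47, 2.45 and 2.45 in the authors' deposited table. The subunit mt-Nd5 was 2.09-fold higher there and was detected in 64.2% of cells against 44.4% outside. The ATP synthase subunit mt-Atp6 stood at 1.78-fold and the large ribosomal RNA mt-Rnr2 at 1.86-fold, per the authors' deposited table. None of these 6 had an entry for cluster 2, so their levels there cannot be given. Cluster 13 was the only cluster with an entry for mt-Nd1, mt-Nd2, mt-Nd5 and mt-Atp6. A high share of mitochondrial RNA is also read as a sign of damaged cells. The table holds no other measure of cell quality, and its part in these values was not tested.

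**Figure D3:**
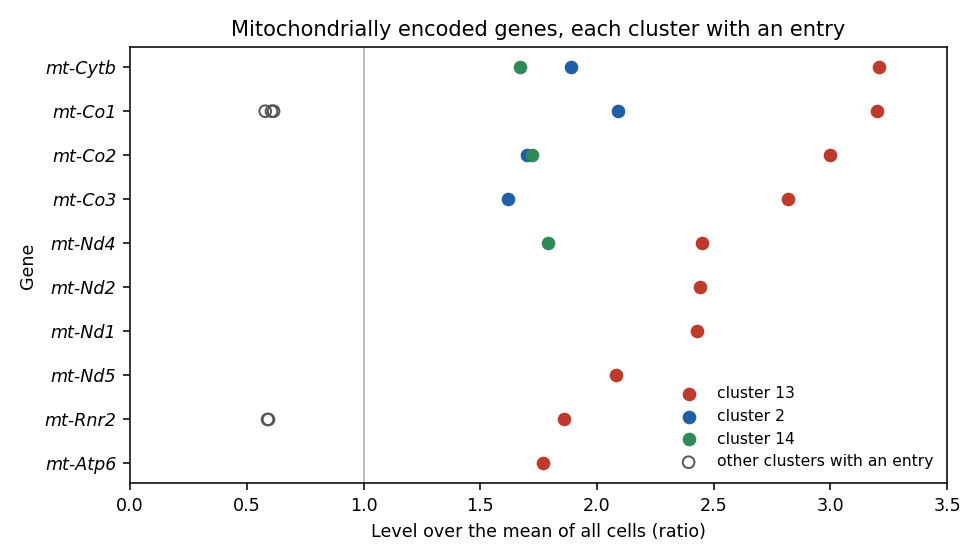
Level of the 10 mitochondrially encoded genes over the mean of all cells (x axis, ratio, with 1 marked by a line), for each cluster that has an entry for the gene. Cluster 13 is farthest to the right on all 10 lines, at 3.21 for mt-Cytb against 1.89 in cluster 2 and 1.67 in cluster 14, and 6 genes have no point for cluster 2.

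Of 45 genes on the nuclear-encoded mitochondrial list and in the table, cluster 13 listed 11 higher and cluster 2 listed 43. The backgrounds are 5.35% and 22.7%. That list also holds Fabp3, the fatty acid binding protein, which is among the 11 and among the 10 that follow. The levels of the 10 genes listed for both were 0.637 to 0.979 of those in cluster 2, with a median of 0.897. The other genes that cluster 2 lists have no entry for cluster 13 and are left out. For genes with a small fold in cluster 2, the table's threshold by itself keeps the ratio of a listed gene near 1, so these ratios and the values per detecting cell describe the listed genes only. Uqcr11 and Cox6a1, for example, both stood at only 1.74 times the mean of all cells in cluster 2. In cluster 13, Uqcr11 of complex III stood at 0.979 of its level in cluster 2, Cox6a1 of complex IV at 0.974, Ndufb9 of complex I at 0.953 and Atp5g1 of ATP synthase at 0.910. In detection these genes stayed nearer to the remaining cells. Atp5g1 was detected in 64.8% of cluster 13, 83.4% of cluster 2 and 60.4% of the rest, which is a position of 19.2% by detection against 83.5% by level. Ndufb9 was detected in 69.3%, 86.4% and 58.9% of the same cells. Cox6c had positions of 27.2% by detection and 85.2% by level. Per detecting cell, all 10 lay above cluster 2, from 1.08 to 1.17 for Atp5g1 up to 1.39 to 1.46 for Chchd10.

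The muscle isoform Cox6a2 differed from these housekeeping subunits. It was detected in 31.3% of cluster 13, 69.7% of cluster 2 and 0.850% of the remaining cells, a pattern like that of the sarcomeric genes, and its level was 0.637 of that in cluster 2. Uqcrq of complex III was at 0.800. Atp5k, another subunit of ATP synthase, was listed higher for cluster 13 alone, at 1.72-fold in the authors' deposited table, and is among the entries with an adjusted p of 0.05 or more. Genes of glycolysis and hypoxia were listed for 4 of 22 in the table, against 18 for cluster 2, with the same backgrounds of 5.35% and 22.7%. Beside Gyg and Pgam2 these were Bnip3, which acts in mitophagy, and Higd1a, a hypoxia-induced mitochondrial protein, at 0.548 and 0.766 of cluster 2.

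**Figure D4:**
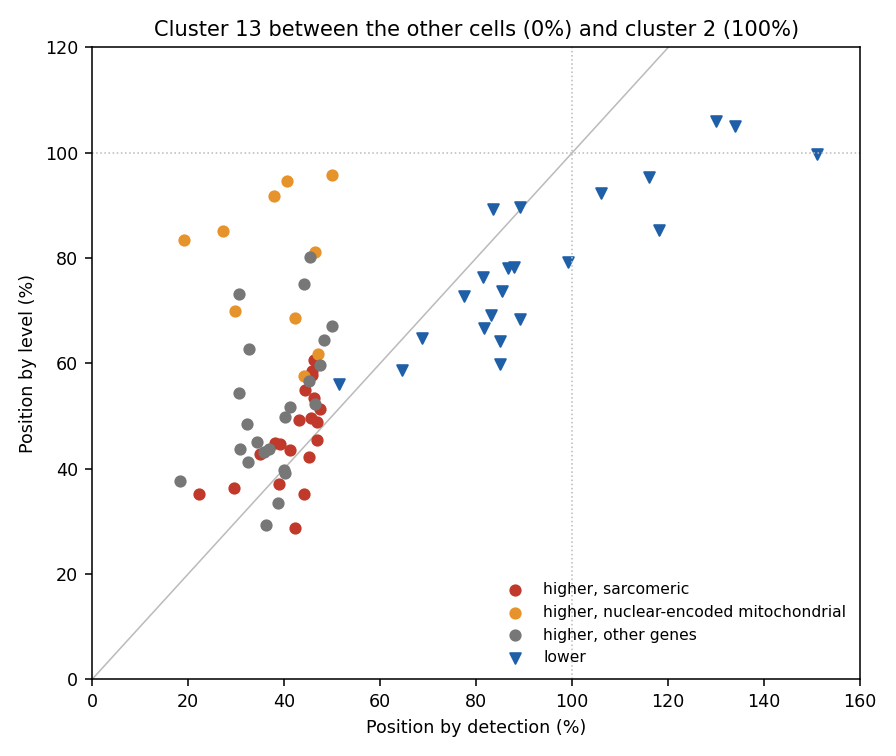
Position of cluster 13 between the cells in neither cluster (0%) and cluster 2 (100%), by detection (x axis) and by level (y axis), for 75 genes listed for both clusters and not mitochondrially encoded. Higher genes sit at or left of 50% in detection, with nuclear-encoded mitochondrial genes reaching 95.7% by level, while lower genes lie between 51.4% and 151% in detection.

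Across the 53 genes higher in both clusters and not mitochondrially encoded, the level was below that of cluster 2 in all 53. Their median position was 41.2% by detection, from 18.3% for Myl6 to 50% for Uqcr11, and 51.4% by level. The position by level was above that by detection for 44 of them. Per detecting cell, 38 had their whole range above 1, 11 below 1 and 4 on both sides of it. Depth per cell is unknown, so a value above 1 need not mean more transcript in a detecting cell. The part of depth in these values was not tested. The 215 genes that cluster 2 lists higher without an entry for cluster 13 are not in these counts, and a gene with a low level in cluster 13 could not enter them.

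The 22 genes lower in both clusters had a median position of 86.0% by detection and 77.2% by level, and 18 of them lay at 80% or more by detection or beyond cluster 2. Another 286 genes lower in cluster 2 have no entry for cluster 13, and a listed gene with a small fold in cluster 2 must have a high position by level, so these values do not hold for lower genes at large. Genes of the nucleus and chromatin made up 8 of the 24 lower entries, out of 30 in the table, all 30 of which cluster 2 listed lower, where the backgrounds are 2.01% and 25.7%. H2afx, the histone variant of DNA damage signalling, was detected in 21.2% of cluster 13, 17.1% of cluster 2 and 51.1% of the rest. Cbx1, a heterochromatin protein, was detected in 19.6%, 19.3% and 55.3%, so that clusters 13 and 2 were nearly equal in detection. Supt16h, a subunit of the FACT histone chaperone that is not counted among these 8, was detected in 13.4%, 8.7% and 43.9%. Against the cells in neither, H2afx was 2.09-fold, Supt16h 1.96-fold and Cbx1 1.90-fold lower in cluster 13.

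By level, all 8 nuclear and chromatin genes were less reduced than in cluster 2, at 1.31 to 2.94 times its level. H2afx and Cbx1 stood at 1.43 and 1.31 times it, and Supt16h, which is not among the 8, at 1.37 times it. The authors' deposited table lists Ptma, the acidic nuclear protein prothymosin alpha, as lower by 1.78-fold in cluster 13 and by 5.83-fold in cluster 2. Its detection was 78.2%, 74.4% and 99.5%, and its level in cluster 13 was 2.94 times that in cluster 2. Ncl, the nucleolar protein nucleolin, and Ran, the GTPase of nuclear transport, were at 2.00 and 1.83 times the level of cluster 2. Anp32b was at 1.52 times it. The dividing-cell genes Cenpf and Ube2c, which act at the kinetochore and in the degradation of mitotic proteins, were the 2 listed of 23 on the S, G2 and M phase list, where cluster 2 listed 22 and the backgrounds are 2.01% and 25.7%. Cenpf was detected in 15.6% of cluster 13, 5.1% of cluster 2 and 38.8% of the rest.

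Cytoskeletal genes of non-muscle cells were lower for 4 of 30 in the table (background 2.01%) and higher for 2, Myl9 and Myl6 (background 5.35%, so a similar share). Tagln2, an actin-binding protein, was farthest below the other cells, by 2.18-fold in the authors' deposited table. Its detection was 17.9% in cluster 13, 14.3% in cluster 2 and 47.5% in the rest. For Actg1 that table gives a level 2.05-fold lower in cluster 13. It was detected in 46.9% of cluster 13, below the 61.3% of cluster 2 and the 89.7% of the rest, while its position by level was 99.7%, that is, at cluster 2. Marcks, a substrate of protein kinase C at the membrane, lay between, at 30.7%, 9.8% and 68.8%. S100a10, the partner of annexin A2, had no entry for cluster 2 and is listed for cluster 13 at 1.79-fold lower in the authors' deposited table.

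Among developmental signals, Sfrp1, a Wnt antagonist, and Crabp1, a retinoic acid binding protein, were the 2 lower genes of 9 on the Wnt and retinoic acid list, against a background of 2.01%. Sfrp1 was detected in 19% of cluster 13, 11.9% of cluster 2 and 50.2% of the rest, and Crabp1 in 7.8%, 11.4% and 31.2%. Wls, which carries Wnt proteins to the cell surface, was detected in 9.5%, 12.4% and 30% of the same cells. Ifitm1, a membrane protein of early mesoderm, was detected in 8.9% of cluster 13, where cluster 2 had 0.9% and the rest 36.4%. Beyond clusters 13 and 2, Crabp1 was listed higher in 2 clusters and lower in 7, and Sfrp1 higher in 3 and lower in 6, in the authors' deposited table. The other cells therefore differ among themselves in these genes.

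In 6 of the 22 shared lower genes a smaller share of cells detected the gene in cluster 13 than in cluster 2: Actg1, Smc3, Igfbp4, Crabp1, Wls and Adss. Some of these differences are small, have no error and rest on a cluster with 0.497% of all cells. Smc3, a subunit of cohesin, was detected in 20.1% of cluster 13, 27.9% of cluster 2 and 51.2% of the rest. Igfbp4 was detected in 8.9%, 13.1% and 27.3%, and Adss, an enzyme of purine synthesis, in 7.8%, 9.2% and 34.5%. By level, Smc3 and Igfbp4 were slightly below cluster 2, at 0.962 and 0.957 of it, and the other 20 genes were at or above it. Emb, the cell adhesion protein embigin, was the lower gene farthest from cluster 2 by level, at 3.14 times it, with detection of 35.8%, 13.6% and 59.3%. Sae1, which activates SUMO, was the 1 lower gene listed for cluster 13 alone. The authors' deposited table has it 1.73-fold lower, with detection of 15.6% inside and 41.6% outside.

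**Figure D5:**
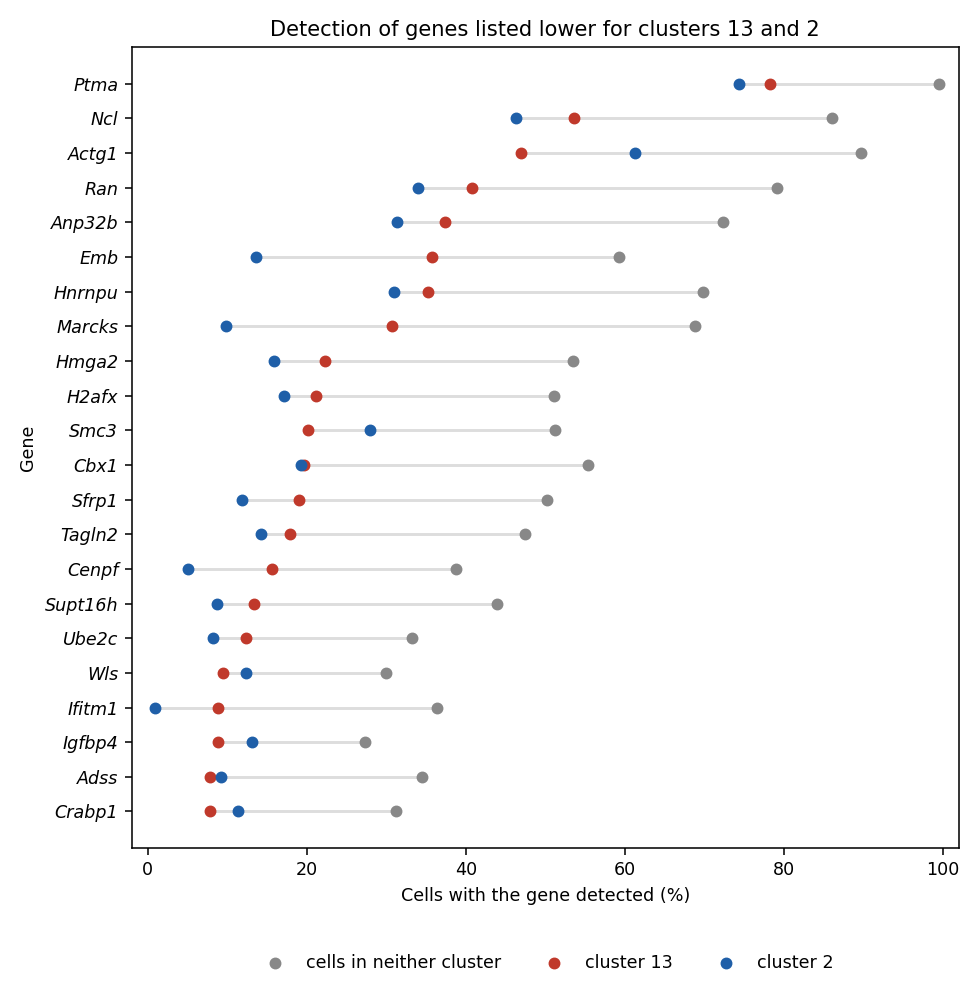
Percent of cells with each of the 22 genes lower in both clusters detected (x axis), for cluster 13, for cluster 2 and for the cells in neither cluster, with 1 gene per line. The cells in neither are farthest right on every line, and cluster 13 lies left of cluster 2 for 6 genes, such as Actg1 at 46.9% against 61.3%.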

How the data were processed

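Single cells of 4 libraries were profiled with 10x V2 chemistry. Cell Ranger, Seurat and the mm9 build are named per the submitters' processing notes. Tool versions, cell filters, doublet treatment, cluster settings and the libraries behind the clusters were looked for and are not stated there or in the labels. The natural log fold changes, the fraction of cells with a gene inside and outside each cluster, and the p-values (times 37991 when adjusted) were computed by the authors, per the file headers. Counts per cell and cell-to-library assignments were not analysed here, so no library depth or contrast of genotype or stage is given.

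Folds here are exponentials of the deposited values. The natural log added up for 3 of 3 genes listed in nearly all clusters, base 2 for 1 and base 10 for 0. Cluster sizes were solved by least squares from 407 genes (residual SD 0.0228 percentage points), and levels and detection in the cells of neither cluster followed from them. These steps were first tested on simulated data. Of 88 names, 85 matched a current symbol. Members, the 20 gene lists and the rules were chosen with earlier results of these data known. Named by rule were all mitochondrial genes, the 6 highest sarcomeric genes, the 20 highest and 15 lowest others, genes listed for cluster 13 alone and up to 4 of each list. Other names were chosen after their values were seen, and 1 gene that the rule names is not reported here. Python 3.11.15, numpy 2.4.6, pandas 2.3.3 and matplotlib 3.10.9 were used. Alternatives were other thresholds and bounds, and other genes for the sizes.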

Additional observations from a re-analysis of the deposited data

How the results depend on the processing

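The table lists only entries past its thresholds, so stricter ones shorten it. Where the change had to reach 0.75 on the natural log scale, cluster 13 kept 32 higher and 1 lower entries, with 10 higher and 1 lower that were neither sarcomeric nor mitochondrially encoded, and 27 higher and 1 lower shared with cluster 2. At a change of at least 1 it kept 19 higher (10 sarcomeric, 4 mitochondrially encoded, 5 others, 15 shared with cluster 2) and 0 lower. With a larger share of at least 50% of cells it kept 18 higher and 9 lower, of which 8 and 9 were neither sarcomeric nor mitochondrially encoded and 13 and 9 were shared, with 1 sarcomeric gene left. The size of cluster 13 was 0.505% without the sarcomeric genes, 0.498% without the mitochondrially encoded genes and 0.503% from genes listed for 3 or more clusters, and in a check added after seeing the data these sizes left the median positions of the sarcomeric genes at 44.2% and 45.2%. With 0.5 on the natural log scale as the bound, 30 shared genes were higher in cluster 2 and 10 in cluster 13. With 0.25, 18 were higher in cluster 13, and with 0.75, 10 were higher in cluster 2 and 3 in cluster 13. Detection inside minus outside had a median of 17.2 percentage points over the higher entries, 12.3 without the sarcomeric genes, 18.1 without the mitochondrially encoded genes, and a mean of 16.4. Counts under the adjusted p of 0.01 or without predicted genes stayed within 1.5 times. No paired analysis was possible because the table holds no samples. Cell numbers are not stated, so no share has a counting interval.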

Other observations

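Many genes that stand high in cluster 2 had no entry for cluster 13, 215 of them against 57 with one. In order of their fold in cluster 2 in the authors' deposited table, the leading ones were Acta2, the smooth muscle actin of early heart, at 23.1-fold, Ankrd1, a stretch-responsive sarcomere protein, at 10.6-fold, Cck at 9.40-fold, Nppb, a natriuretic peptide, at 7.19-fold, and the smooth muscle genes Cnn1 at 5.70-fold and Tagln at 5.03-fold. Acta2 was detected in 97.3% of the cells of cluster 2 in that table, as widely as Myl7. Among sarcomeric genes, Ldb3 and Mybpc3, at 4.94-fold and 4.44-fold in cluster 2 in the authors' deposited table, were without an entry too. These genes were chosen after their values were seen, and the missing entries show only that a threshold of fold, detection or p was not passed.

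Of the genes that cluster 2 lists lower, 286 had no entry for cluster 13. Nnat at 11.2-fold, Igfbp2 at 5.61-fold, Srsf3 at 4.74-fold and Ranbp1 at 4.62-fold were the largest in the authors' deposited table. The translation and chaperone list had 0 of 20 table members listed for cluster 13, where the backgrounds are 5.35% higher and 2.01% lower. For cluster 2, 16 were listed lower, where the background is 25.7%. The imprinted list had 0 of 14 for cluster 13, with 3 higher and 2 lower in cluster 2, where the backgrounds are 22.7% and 25.7%. At the backgrounds of cluster 13, 0 of so few genes sets neither list apart from all genes.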
